A study of Mus musculus with 16 samples.

Results

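Deletions that remain at a meiotic recombination hotspot when no meiotic breaks are made were described in 4 Spo11-/- libraries and set against 4 Atm+/+ and 4 Atm+/- libraries. These 12 libraries were taken from the 16 of the study by the genotype in their labels, and each genotype has 1 library for each of 4 overlapping amplicons of the hotspot. The remaining libraries are Atm-/- and were used only to look up shared deletions and to place the centre of the hotspot. Every library came from testes of adult C57BL/6 mice of 2 to 5 months, and spermatocytes are the labelled cell type, which genomic DNA cannot be used to check. Spo11-/- mice lack SPO11. Atm+/+ mice have both copies of Atm and Atm+/- mice have 1 copy, and both of these genotypes keep Spo11. Mutant testes gave their entire cell suspension and wild-type testes a fraction of theirs, per the labels' protocols. How many animals stand behind a library, and how many genomes entered each PCR, is not given in the sources used here, so the p-values below reflect variation among libraries alone, and that variation may be technical.

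SPO11 is the enzyme that cuts both strands of DNA to start meiotic recombination, and it does so mostly within short stretches called hotspots. ATM is a kinase that is activated by these breaks and limits how many more are made nearby. Breaks are usually repaired by copying a homologous chromosome. Joining of ends can instead lose the bases between them, and the join often falls at a short direct repeat, of which 1 copy is kept. Without SPO11 no meiotic breaks form, so deletions read in Spo11-/- arose without them, in the cells or in PCR and sequencing. Which of these applies to a given deletion was not tested.

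The sequences below show the kinds of deletion found in Spo11-/- that the results turn on. They were rebuilt from the deposited reads and are given 5' to 3' on the plus strand of mm10, with coordinates as in the files. In the first 5, capitals mark both copies of the junction repeat, the run of bases found at either end of the deletion. Loss of 1 copy and all bases between gives the product.
22-bp deletion with a 9-bp repeat, chr1:33765333-33765387: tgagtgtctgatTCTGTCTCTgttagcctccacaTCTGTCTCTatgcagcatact
45-bp deletion with a 6-bp repeat, chr1:33765357-33765431: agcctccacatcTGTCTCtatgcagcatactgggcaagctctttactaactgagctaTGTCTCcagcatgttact
187-bp deletion with an 8-bp repeat, chr1:33765168-33765386: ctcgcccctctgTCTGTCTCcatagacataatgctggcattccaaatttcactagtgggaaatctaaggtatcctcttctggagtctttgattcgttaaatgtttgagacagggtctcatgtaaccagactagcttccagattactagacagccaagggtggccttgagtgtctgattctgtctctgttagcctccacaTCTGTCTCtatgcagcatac
204-bp deletion with a 7-bp repeat, chr1:33765152-33765386: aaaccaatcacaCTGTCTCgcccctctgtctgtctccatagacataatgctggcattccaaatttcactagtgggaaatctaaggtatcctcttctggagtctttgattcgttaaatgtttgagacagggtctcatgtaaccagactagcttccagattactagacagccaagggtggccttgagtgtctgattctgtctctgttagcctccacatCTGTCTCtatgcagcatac
58-bp deletion with a 4-bp repeat, chr1:33765286-33765371: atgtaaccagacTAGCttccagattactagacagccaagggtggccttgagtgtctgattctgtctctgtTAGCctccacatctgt
In the next 3, which have no junction repeat, capitals mark the deleted bases.
32-bp deletion, chr1:33764805-33764866: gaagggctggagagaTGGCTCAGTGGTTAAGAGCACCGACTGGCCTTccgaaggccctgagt
58-bp deletion without a repeat, chr1:33765281-33765368: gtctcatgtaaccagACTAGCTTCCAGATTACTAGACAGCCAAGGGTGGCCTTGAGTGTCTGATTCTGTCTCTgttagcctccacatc
56-bp deletion, chr1:33765013-33765098: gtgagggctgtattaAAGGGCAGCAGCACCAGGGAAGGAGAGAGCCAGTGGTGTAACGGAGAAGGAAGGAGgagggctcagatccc
In the last, capitals mark the tandem copies of AATA from which the most frequent short deletion removes 1 copy.
4-bp deletion, chr1:33764952-33764990: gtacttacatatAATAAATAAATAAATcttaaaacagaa

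The amplicons together cover chromosome 1 from 33764688 to 33765556 (mm10), 869 bp that lie within Zfp451, a protein-coding zinc finger gene spanning 33761541 to 33815602 (gene ID 98403). Its exons and introns were not analysed here. Amplicons 1 to 4 are 575, 579, 577 and 574 bp long, and all of them cover 33764983 to 33765262. Depth, in units of 1e6 reads, was 3.34, 2.92, 4.49 and 3.57 in Spo11-/- amplicons 1 to 4 and 2.92 to 5.33 over the 12 libraries, so 1 distinct deletion stood for 0.187 to 0.343 per 1e6 reads. The labels' library names carry a letter, called the library set here. Set A holds the Atm-/- libraries alone, so set and genotype cannot be told apart there. Set B holds Atm+/+ amplicons 1 and 2 and Atm+/- amplicons 3 and 4. Set C holds Spo11-/- amplicons 1 and 2 and Atm+/+ amplicons 3 and 4. Set D holds Spo11-/- amplicons 3 and 4 and Atm+/- amplicons 1 and 2. No Spo11-/- library is in set B, which stood apart: deletions of 11 bp or more had 1406 reads there, 92.4% of them with a deletion end in the middle 41 bp of the amplicon, against 15.2% of 46 in set C and 9.88% of 81 in set D.

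Over all reads, Spo11-/- had fewer distinct deletions of 11 bp or more than the mean of the genotypes with breaks in every amplicon, by a margin that did not pass the test. A distinct deletion is 1 left-most start and 1 length in 1 library, whatever its reads. The Spo11-/- libraries of amplicons 1 to 4 held 4, 11, 13 and 14 of them. The Atm+/+ libraries held 64, 86, 12 and 6. The Atm+/- libraries held 16, 18, 79 and 66. The high counts of both genotypes are those of set B, and outside it counts ran from 6 to 18 and overlapped those of Spo11-/-. Per 1e6 reads this came to 2.95 ± 1.25 in Spo11-/- (SD, n = 4), 9.37 ± 8.24 in Atm+/+ (n = 4) and 9.43 ± 5.77 in Atm+/- (n = 4). On mean log2 rates the genotypes with breaks were 2.57-fold higher (log2 difference of Spo11-/- from them -1.36), and Spo11-/- was the lowest in 3 of 4 amplicons (two-sided exact permutation within amplicons, 81 assignments, p = 0.148). In amplicon 4 it was Atm+/+ that was lowest, at 1.84 per 1e6 reads against 3.92 in Spo11-/-.

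**Figure D1:**
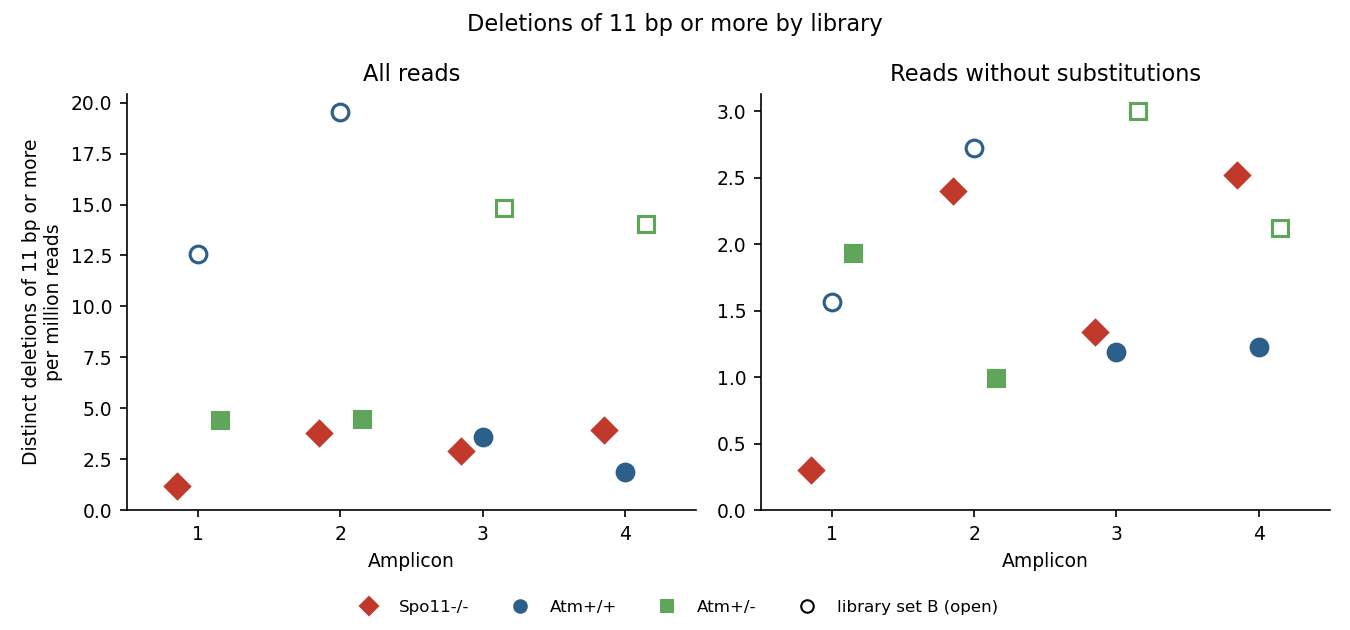
Rate of distinct deletions, 11 bp and longer, per 1e6 reads (vertical axis, linear, a different range in each panel) for each of the 12 libraries, by amplicon. Open symbols are set B: over all reads these 4 libraries lie between 12.6 and 19.5, and the other 8 at 4.46 or less; in reads without substitutions the 2 ranges overlap.

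The size of this excess moved with library set B. Without that set the genotypes with breaks were 1.24-fold higher than Spo11-/-, in an exact permutation test that cannot reach 0.05, and with a term for library set the fold was the same 1.24 (exact permutation p = 0.359). Without deletions that end in the middle of the amplicon it was again 1.24-fold (exact permutation p = 0.432). Pooled over libraries, Spo11-/- held 2.94 distinct deletions per 1e6 reads (95% Poisson interval 2.12 to 3.97), Atm+/+ and Atm+/- in sets C and D 3.65 (52 deletions, 2.72 to 4.78), and in set B 15.1 (295 deletions, 13.4 to 16.9). The Poisson intervals here and below cover counting error only and leave out the spread among libraries. They take the deletions as independent, which reads without molecular identifiers cannot show. Leaving out the Atm+/+ library of amplicon 4 raised the fold to 3.29 and brought the call past the threshold (exact permutation p = 0.037). How far library set accounts for the excess was not tested beyond these values, because no set holds Spo11-/- and another genotype at the same amplicon.

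Counted in reads, the difference was larger and did not pass the test either. Deletions of this length had 4, 16, 14 and 21 reads in the Spo11-/- libraries of amplicons 1 to 4, against 323, 734, 18 and 8 in Atm+/+ and 19, 27, 179 and 170 in Atm+/-. Set B again held the high values, and the others ran from 8 to 27. The mean log2 difference was -2.28, or 4.86-fold (exact permutation p = 0.136), and 1.37-fold without set B, again in a test that cannot reach 0.05. Without the Atm+/+ library of amplicon 4 it was 6.75-fold (exact permutation p = 0.037). Few Spo11-/- deletions had more than 1 read: 36 of 42 had exactly 1, and 0, 3, 1 and 2 in amplicons 1 to 4 had more. In set B 18 to 42 deletions a library had 2 or more reads, and in the other Atm+/+ and Atm+/- libraries 2 to 4 had. With 2 or more reads required, the genotypes with breaks were 4.74-fold higher (exact permutation p = 0.0617).

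Among reads without substitutions, the difference from Spo11-/- was smaller and did not pass the test. Spo11-/- held 1, 7, 6 and 9 distinct deletions of 11 bp or more in amplicons 1 to 4, Atm+/+ 8, 12, 4 and 4, and Atm+/- 7, 4, 16 and 10. Per 1e6 reads Spo11-/- was the lowest in amplicon 1 (0.30), between the others in amplicons 2 and 3 (2.40 and 1.34) and the highest in amplicon 4 (2.52). The mean rates were 1.64 ± 1.04 in Spo11-/-, 1.68 ± 0.72 in Atm+/+ and 2.01 ± 0.82 in Atm+/- (SD, n = 4 each). The genotypes with breaks were 1.28-fold higher on mean log2 rates (exact permutation p = 0.556), and 0.99-fold as high without set B (exact permutation p = 1). Counted in reads, Spo11-/- had 1, 8, 6 and 12, Atm+/+ 23, 53, 6 and 5, and Atm+/- 9, 4, 17 and 10, and the genotypes with breaks were 1.75-fold higher (exact permutation p = 0.370). That fold was 1.07 without amplicon 1 (exact permutation p = 0.963) and 1.10 without set B (exact permutation p = 0.875). These p-values do not show that the genotypes act alike. The selection also removed more reads in set B: of reads with a 2 to 10 bp deletion, 41.7%, 38.7%, 35.0% and 31.2% had no substitution in Spo11-/- amplicons 1 to 4, 33.8% to 35.3% in the other libraries of sets C and D, and 18.9% to 21.2% in set B. With each depth scaled by this share, a setting added after the data were seen, the fold was 1.77 (exact permutation p = 0.272).

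The 42 deletions of 11 bp or more in Spo11-/- were 12 to 223 bp long, with a median of 58 bp. Of these, 11 were 11 to 29 bp long, 18 were 30 to 99 bp and 13 were 100 bp or more. Together they had 55 reads, and 1 of the 41 different deletions was found in 2 Spo11-/- libraries. The 23 found in reads without substitutions had the same median of 58 bp and ran from 13 to 223 bp. The longest removed 33765142 to 33765364 (repeat CATC, 1 read). The most frequent, with 6 reads (4 without substitutions), was the 45-bp deletion printed above, in amplicon 4.

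Amplicon 1 gave the fewest deletions in Spo11-/-. Its 4 were 97 bp and 112 bp from 33765049, 144 bp from 33765094 and 50 bp from 33765189, each with 1 read and found in no other library. In amplicon 3 the 84-bp deletion from 33765089 had 2 reads, and it was the only Spo11-/- deletion with more than 1 read that no Atm+/+ or Atm+/- library held. The other 12 of that amplicon had 1 read each, among them 16 bp from 33764949, 15 bp from 33764966 (repeat TAAA) and 172 bp from 33765031 (GGCA).

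**Figure D2:**
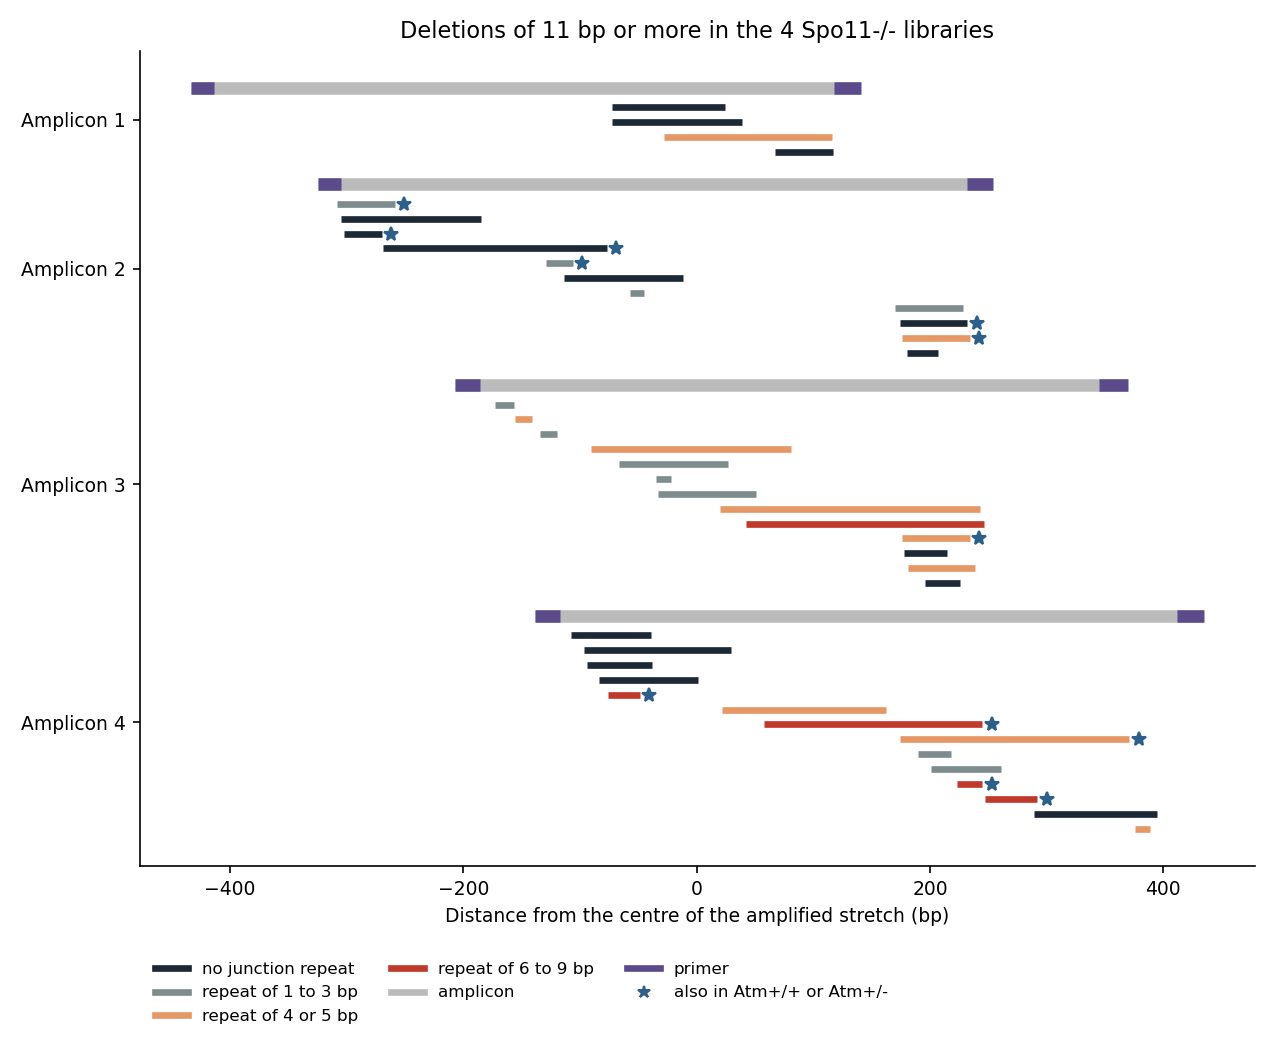
Position of the 42 deletions of 11 bp or more in the 4 Spo11-/- libraries, 1 bar each, as distance in bp from the centre of the 869-bp stretch, coloured by the length of the junction repeat. Grey bars are the amplicons with their primers at the ends; stars mark the 12 entries also found in Atm+/+ or Atm+/-. In amplicons 1 and 2, 8 bars begin or end at a primer.

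Deletions in Spo11-/- were longer than in the genotypes with breaks over all reads. The median length was 104.5, 58, 58 and 64.5 bp in the Spo11-/- libraries of amplicons 1 to 4, 26, 30, 43 and 38 bp in Atm+/+, and 19.5, 57, 33 and 29.5 bp in Atm+/-. Spo11-/- had the highest median in 4 of 4 amplicons, with the nearest pair 1 bp apart in amplicon 2 (58 against 57 bp). The means were 71.3 ± 22.4 bp (SD, n = 4) and 34.5 ± 11.6 bp (n = 8), a difference of 36.8 bp (exact permutation p = 0.0123, the smallest that 81 assignments give). The call did not hold without amplicon 1 (21.8 bp, p = 0.0741), without set B (31.9 bp, p = 0.125, in a test that cannot reach 0.05), without ends in the middle of the amplicon (21.9 bp, p = 0.0617), with at most 1 substitution (28.1 bp, p = 0.235) or with 2 or more reads per deletion (8.83 bp, p = 0.741, exact permutation tests). Without deletions within 5 bp of a primer the call held (30.7 bp, exact permutation p = 0.0494). Spo11-/- then had the highest median in 3 amplicons and the lowest in 1. With middle ends left out as well, it had the highest in 4 (27.5 bp, exact permutation p = 0.0247). The difference was 23.9 bp in reads without substitutions (exact permutation p = 0.444), where the Spo11-/- library of amplicon 1 gave its median of 144 bp from 1 deletion.

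By length class, the deficit of Spo11-/- over all reads was widest at 11 to 29 bp, and no class passed the test after Benjamini-Hochberg adjustment over the 5 classes. Deletions of 11 to 29 bp numbered 0, 3, 4 and 4 in the Spo11-/- libraries of amplicons 1 to 4, against 2 to 9 in the other libraries of sets C and D and 28 to 47 in set B. The genotypes with breaks were 4.45-fold higher in this class (exact permutation p = 0.123, adjusted p = 0.309), and 1.79-fold without set B (exact permutation p = 0.875). At 30 to 99 bp they were 1.95-fold higher (exact permutation p = 0.247, adjusted p = 0.412) and without set B 0.90-fold as high (exact permutation p = 0.875). At 100 bp or more they were 1.24-fold higher (exact permutation p = 0.383, adjusted p = 0.478), with 2, 3, 3 and 5 deletions in Spo11-/-, 5, 4, 5 and 2 in Atm+/+ and 4, 6, 5 and 10 in Atm+/-. Here the groups overlapped, set B included. Restricted to reads without substitutions, all 5 classes had an adjusted p of 0.926 (exact permutation).

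**Figure D3:**
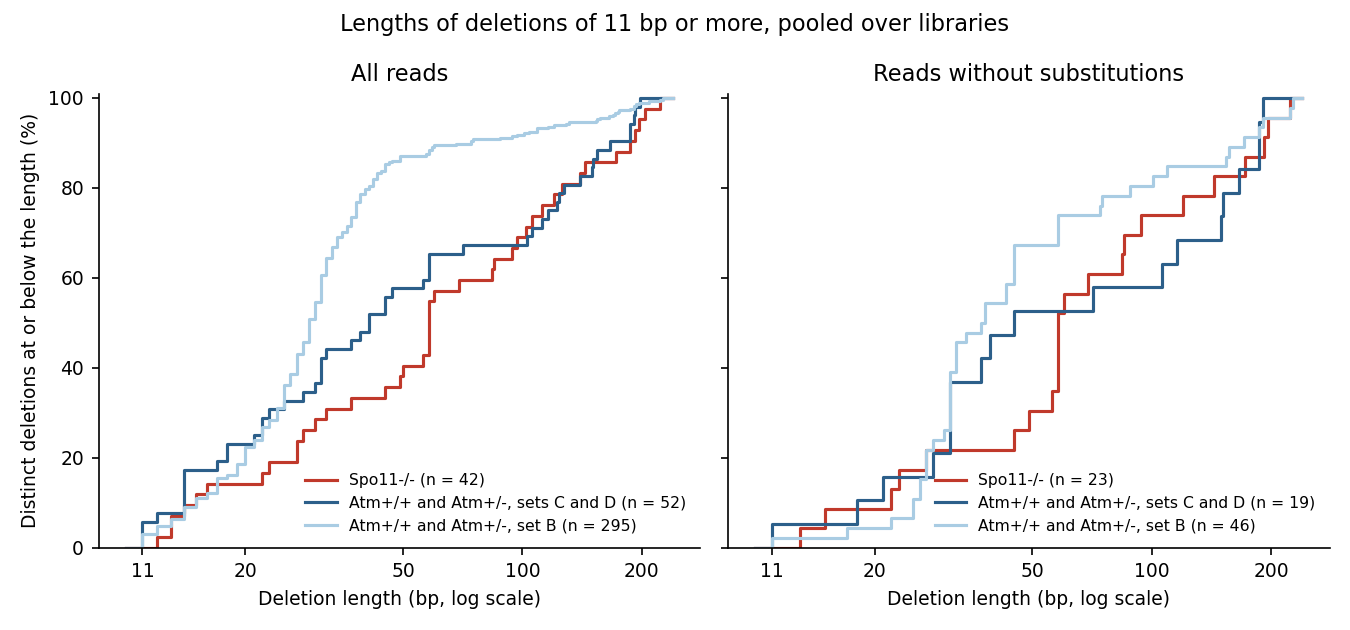
Cumulative percent of distinct deletions of 11 bp or more (vertical axis) against length in bp (horizontal axis, log scale), pooled over libraries. Over all reads the 295 deletions of set B have a median of 29 bp, while the 42 of Spo11-/- (58 bp) and the 52 of Atm+/+ and Atm+/- in sets C and D (41 bp) run closer together; the step in Spo11-/- at 58 bp holds 5 deletions.

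Junction repeats were frequent in Spo11-/-, and the largest classes were no repeat and a repeat of 4 bp. Of the 42 deletions, 16 had no repeat, 7 had 1 bp, 3 had 2 bp, 1 had 3 bp, 9 had 4 bp, 1 had 5 bp and 5 had 6 to 9 bp. The 9 count the 58-bp deletion from 33765298 in 2 libraries. A repeat of at least 1 bp was at 26 of 42 (61.9%, 95% Clopper-Pearson interval 45.6 to 76.4). Deletions of the same lengths would have one at 45.1% of all positions in the amplicons, so having none was not the more frequent form than position alone gives. A repeat of 4 bp or more was found at 15 of 42 (35.7%, 95% Clopper-Pearson interval 21.6 to 52.0). Deletions of the same lengths placed at every position of the amplicons would have one at 3.26% of positions. Over all reads the share was 34.6% of 52 deletions (22.0 to 49.1) in Atm+/+ and Atm+/- of sets C and D and 10.2% of 295 (6.97 to 14.2) in set B. Among reads without substitutions it was 47.8% of 23 in Spo11-/- (26.8 to 69.4, with 3.72% of positions), 42.1% of 19 in sets C and D (20.3 to 66.5) and 30.4% of 46 in set B (17.7 to 45.8), intervals that all overlap. Over all reads without ends in the middle of the amplicon, set B had 28.6% of 77 (18.9 to 40.0) and Spo11-/- 33.3% of 39 (19.1 to 50.2). Repeats of 6 bp or more were found at 11.9% of Spo11-/- deletions (4.0 to 25.6) and 28.8% of those of the other libraries in sets C and D (17.1 to 43.1), which overlap. The Clopper-Pearson intervals here and below pool deletions over libraries as if independent. They leave out the spread among libraries, and their overlap is not a test of genotype.

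Tested over libraries, the percent with a repeat of 2 bp or more did not differ detectably between Spo11-/- and the genotypes with breaks. It was 25.0%, 27.3%, 53.8% and 57.1% in the Spo11-/- libraries of amplicons 1 to 4, a mean of 40.8% ± 17.0 (SD, n = 4) against 41.6% ± 21.1 (n = 8), a difference of -0.83 percentage points (exact permutation p = 0.926). The Atm+/+ and Atm+/- libraries ran from 21.9% to 75.0% and enclosed all 4 values of Spo11-/-. Without set B it was -17.0 points (p = 0.125 by exact permutation, which cannot go lower there). In reads without substitutions Spo11-/- was 13.8 points higher (exact permutation p = 0.185). Leaving out deletions found in 2 or more genotypes made that difference 33.9 points (exact permutation p = 0.037), and leaving out deletions near a primer made it 0.35 points (exact permutation p = 1). In this selection Spo11-/- amplicon 1 held 1 deletion, which lies near a primer and gave 100%. It was in no other library, so it also enters the 33.9 points. Before any were left out, the differences in amplicons 1 to 4 were 47.3, -2.98, 17.7 and -6.94 points.

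**Figure D4:**
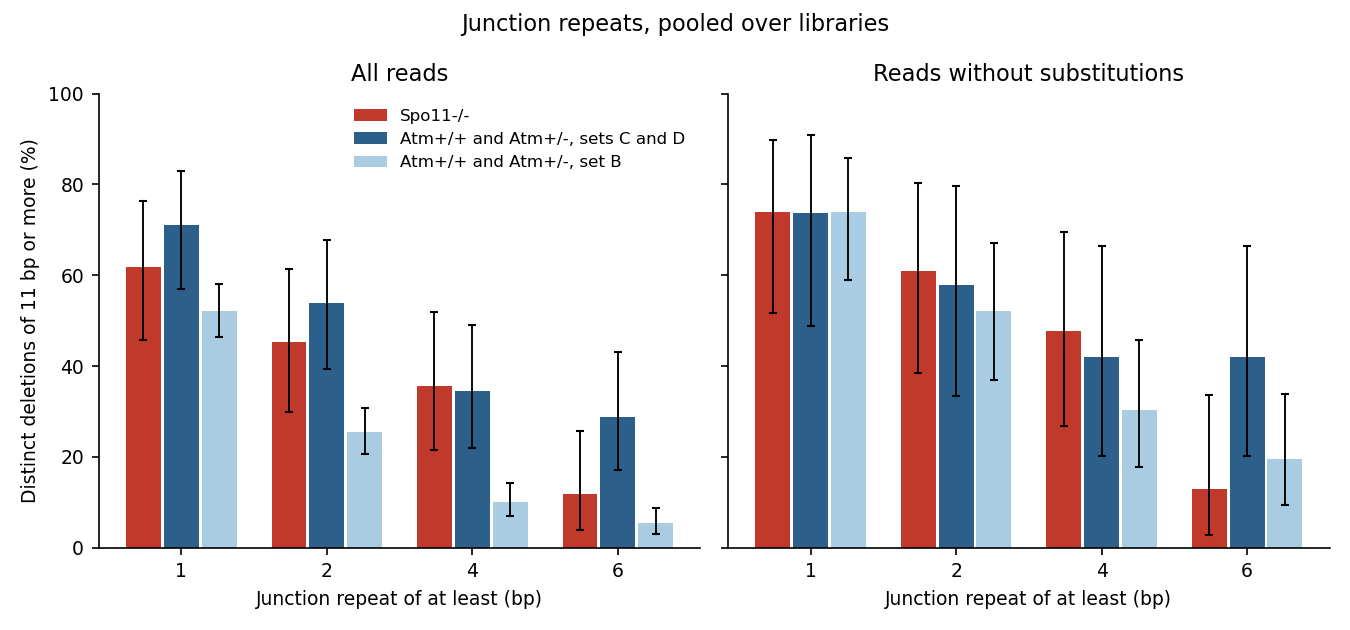
Percent of distinct deletions of 11 bp or more (vertical axis) whose junction repeat is at least 1, 2, 4 or 6 bp long, pooled over libraries, with 95% Clopper-Pearson intervals. Over all reads the bars of set B are the lowest at each length (10.2% at 4 bp or more), and those of Spo11-/- (35.7%) and of sets C and D (34.6%) lie side by side there.

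Of the 5 Spo11-/- deletions with a repeat of 6 bp or more, 4 had the word TGTCTC in it, and the exception was the 27-bp deletion of amplicon 4 (GAAGGA). Copies of TGTCTC, a motif chosen after the deletions were seen, lie at 33765165, 33765182, 33765347, 33765369 and 33765414 on the plus strand, with 1 more on the minus strand at 33765273. Of the 746 different 6-letter words of the stretch, 2 occur as often on the plus strand, TGTCTC included. Of the 10 pairs of plus-strand copies, 4 bounded a deletion in Spo11-/-, and 5 did in any of the 12 libraries. The 22-bp deletion from 33765345 (repeat TCTGTCTCT) had 3 reads in Spo11-/- amplicon 4, 2 in Atm+/+ amplicon 3, and 3 and 2 in Atm+/- amplicons 3 and 4. The 45-bp deletion from 33765369 (repeat TGTCTC) had 6 reads in Spo11-/- amplicon 4. In the same amplicon it had 2 in Atm+/+, 2 in Atm+/- and 5 in Atm-/-, and it had 1 in Atm+/+ amplicon 3. The 187-bp deletion from 33765180 (repeat TCTGTCTC) had 1 read in Spo11-/- amplicon 4, 2 and 1 in Atm+/+ amplicons 3 and 4, and 4 in Atm+/- amplicon 3. The 204-bp deletion from 33765164 (repeat CTGTCTC) had 1 read, in Spo11-/- amplicon 3, and none in the other libraries. A match to these letters is a description of the sequence and says nothing of how the deletions arose.

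A second group were 58-bp deletions from 33765292 to 33765303. Spo11-/- amplicon 2 held 3 of them, from 33765292 (1 bp of repeat), 33765296 (none) and 33765298 (TAGC). Spo11-/- amplicon 3 held 2, from 33765298 and from 33765303 (TCCA). The deletion of 33765298 to 33765355 was the 1 found in 2 Spo11-/- libraries, with 2 reads in amplicon 2 and 1 in amplicon 3. In amplicon 2 this group had 4 reads in Spo11-/-, 18 in Atm+/+ and 6 in Atm+/-. At the 58-bp shift 10 of 12 bases from 33765298 match, and 2 of the 800 windows of 12 bases in the stretch match as well as that.

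Several Spo11-/- deletions began or ended at a PCR primer. The primers of each amplicon were located from the labels' protocols, and a deletion was called near a primer when it overlapped it or left at most 5 bases between, a setting added after the data were seen. By it 8 of 42 Spo11-/- deletions were near a primer (19.0%, 8.60 to 34.1), with 13 of their 55 reads. They were 2 of 4 in amplicon 1, 6 of 11 in amplicon 2 and none of the 13 and 14 in amplicons 3 and 4. In Atm+/+ and Atm+/- of sets C and D it was 8 of 52 (15.4%, 6.88 to 28.1), and in set B 10 of 295 (3.39%, 1.64 to 6.15). In reads without substitutions 6 of 23 were near a primer in Spo11-/- (26.1%, 10.2 to 48.4), 1 of 19 in sets C and D (5.26%, 0.13 to 26.0) and 3 of 46 in set B (6.52%, 1.37 to 17.9). The reverse primer of amplicon 2 lies at 33765354 to 33765375, and the 3 deletions of 58 bp in that amplicon end at 33765349, 33765353 and 33765355. Its forward primer lies at 33764797 to 33764816. Next to it began the 32-bp deletion from 33764820 (4 reads), the 49-bp deletion from 33764814 (GAG, 2 reads) and the 120-bp deletion from 33764817 (1 read). In amplicon 1 the reverse primer starts at 33765240, and the 144-bp deletion from 33765094 (ATCC) and the 50-bp deletion from 33765189 ended at 33765237 and 33765238.

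Without deletions near a primer 34 remained in Spo11-/-, and 17 in reads without substitutions, with none in amplicon 1 there. The genotypes with breaks were then 3.28-fold higher over all reads (exact permutation p = 0.111) and 2.07-fold higher in reads without substitutions (exact permutation p = 0.185). Without set B as well the folds were 1.49 and 1.61 (p = 0.75 and p = 0.875 by exact permutation). The part of the primers in these deletions was not tested. The pair of 58-bp deletions in amplicon 3 lay at least 102 bp from its primers.

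Along the hotspot, Spo11-/- deletions were densest around 33765288 to 33765387. Counted in 50-bp windows by overlap, 14 deletions touched 33765288 to 33765337 (1.28 per 1e6 reads of the amplicons that cover it, 95% Poisson interval 0.70 to 2.14) and 11 touched 33765338 to 33765387 (1.37, 0.68 to 2.44), the highest window. The latter is where copies of TGTCTC and the ends of the 58-bp deletions lie. Atm+/+ and Atm+/- together had 28 deletions there (1.68 per 1e6 reads), so the ratio to Spo11-/- was 1.23. In sets C and D they had 10 (1.51 per 1e6 reads, 0.73 to 2.78), and it was the highest window of those libraries too. Only amplicons 3 and 4 cover this window whole, and both of their Spo11-/- libraries are in set D. The Spo11-/- interval overlapped those of the other windows, such as 0.91 (0.48 to 1.55) at 33765038 to 33765087. Among windows where Spo11-/- had a deletion, the ratio was highest, 8.63, at 33765238 to 33765287, with 4 deletions in Spo11-/- and 79 in the others. Outside set B the others had 6 there (0.56 per 1e6 reads against 0.36 in Spo11-/-). In reads without substitutions the ratio in this window was 6.99, from 1 deletion against 16, and outside set B the others had 5 (0.47 per 1e6 reads, 0.15 to 1.10, against 0.09, 0.0023 to 0.51). Over all reads the ratio was lowest at 33765488 to 33765537, which amplicon 4 alone covers, with 3 deletions in Spo11-/- and 2 in the others (0.30).

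The centre of the hotspot, taken as the 2 neighbouring windows where Atm-/- deletions are densest, held 15 of the 42 Spo11-/- deletions. It held 87 of 168 in Atm+/+ and 31 of 179 in Atm+/-. Outside set B it held 4 of 12 and 1 of 6 in Atm+/+ amplicons 3 and 4. In Atm+/- amplicons 1 and 2 it held 5 of 16 and 7 of 18. At 33764988 to 33765087 the Spo11-/- libraries of amplicons 1 to 4 had 2, 4, 4 and 5 deletions (1.05 per 1e6 reads pooled). Atm+/+ had 37, 45, 4 and 1, and Atm+/- 5, 7, 10 and 9. The values over 10 are those of Atm+/+ in set B. The genotypes with breaks were 1.89-fold higher over this stretch (exact permutation p = 0.247), and 1.35-fold in reads without substitutions (exact permutation p = 0.531). These folds include set B, and no test without it was run for this stretch. Deletions in Spo11-/- here included the 56-bp deletion printed above and the 69-bp deletion from 33765014, each with 1 read, no repeat and no substitution. In the 3 windows that amplicon 1 alone covers whole, 33764688 to 33764837, its Spo11-/- library had 0 deletions, which allows up to 0.898 per 1e6 reads (3 counts).

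**Figure D5:**
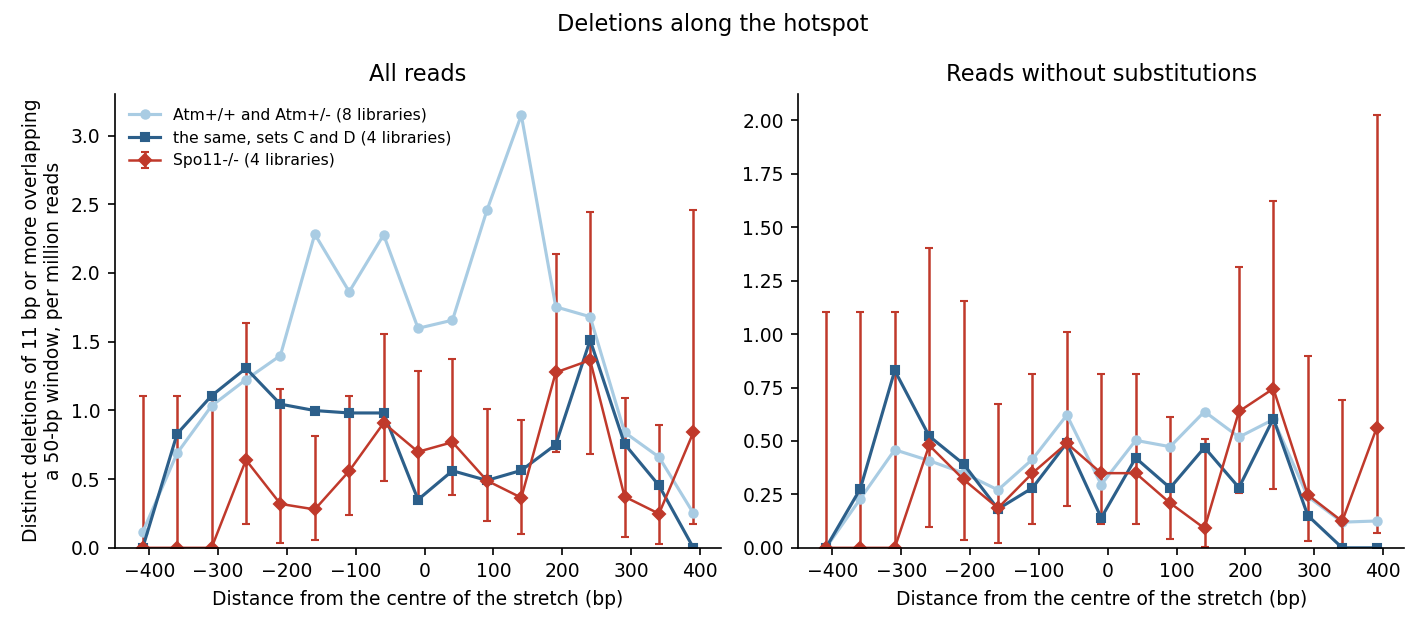
Rate of distinct deletions, 11 bp and longer, that overlap each 50-bp window, per 1e6 reads of the amplicons covering it (vertical axis), against distance from the centre of the stretch in bp, with 95% Poisson intervals for Spo11-/-. Over all reads the 8 libraries of Atm+/+ and Atm+/- reach 3.15 at their highest, while their libraries of sets C and D are at 0.56 in that window, beside 0.36 in Spo11-/-.

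Of the 41 different deletions of 11 bp or more in Spo11-/-, 11 were also found in Atm+/+ or Atm+/- (26.8%, 14.2 to 42.9), which is 3.43% of the 321 different deletions of those genotypes. By library set, 8 of 47 different Atm+/+ and Atm+/- deletions of sets C and D were also in Spo11-/- (17.0%, 7.65 to 30.8). In set B it was 9 of 288 (3.13%, 1.44 to 5.85). By length of repeat, 6 of 14 with 4 bp or more were shared (42.9%, 17.7 to 71.1) and 5 of 27 with less (18.5%, 6.30 to 38.1), intervals that overlap. By reads, 5 of the 6 entries with 2 or more reads were shared. Also by primer, 4 of 8 entries near one were shared and 8 of 34 others. Atm-/- held 6 of the 41, all of them also in Atm+/+ or Atm+/-. Without substitutions 4 of 22 were shared (18.2%, 5.19 to 40.3).

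Besides those with TGTCTC, the widest shared were 3 deletions of amplicon 2. The 32-bp deletion of 33764820 to 33764851 had 4 reads in Spo11-/-, 2 in Atm+/+ and 7 in Atm+/-, all in amplicon 2 and none without a substitution. The 58-bp deletion from 33765298 had 5 reads in Atm+/+ and 2 in Atm+/- beside its 3 in Spo11-/-. The 58-bp deletion from 33765296 had 1 read in Spo11-/-, 10 in Atm+/+ and 3 in Atm+/-. The other 5 shared deletions were each in 1 library besides Spo11-/-. They are 49 bp from 33764814, 192 bp from 33764853, 23 bp from 33764993, 27 bp from 33765046 (GAAGGA) and 197 bp from 33765296 (ACTA). The 27-bp deletion had 1 read in Spo11-/- amplicon 4 and 11 in Atm+/+ amplicon 2, and the others 1 to 3 reads a library.

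The deletions with the most reads in Atm+/+ and Atm+/- that its Spo11-/- library lacked had an end in the middle in each of the 4 amplicons. In amplicon 1 it was 33764989 to 33765014 (26 bp, no repeat), with 96 reads, all in Atm+/+. In amplicon 2 it was 33765045 to 33765075 (31 bp, 8 bp of repeat), with 218 reads in Atm+/+ and 1 in Atm+/- (set D). In amplicons 3 and 4 they were 33765160 to 33765193 (34 bp) and 33765242 to 33765255 (14 bp), each with 23 reads, all in Atm+/-. Of these, the 26-bp, 34-bp and 14-bp deletions were found in set B alone, in which no Spo11-/- library was made. The 31-bp deletion was also found where its ends lie outside the middle of the amplicon, with 1 read each in Atm+/+ amplicons 1, 3 and 4 and 5 reads in Atm+/- amplicon 4. It was thus in 6 of the 8 Atm+/+ and Atm+/- libraries, over sets B, C and D, each of the 6 with at least 1 read without substitutions, and in 0 of 4 Spo11-/- libraries. Outside set B it had 1 read in each library that held it. The deletion was picked for its reads in these genotypes and its absence from Spo11-/- amplicon 2, so this contrast is not a test. A count of 0 allows up to 0.669 to 1.03 reads per 1e6 in those 4 libraries (3 counts each), and 1 read is within that limit. Ends in the middle of the amplicon made up 3 of 42 deletions in Spo11-/-, 9 of 52 in Atm+/+ and Atm+/- of sets C and D and 218 of 295 in set B.

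Deletions of 2 to 10 bp were far more frequent than longer ones in Spo11-/- and did not differ detectably between genotypes. Spo11-/- held 76.4 ± 7.55 distinct per 1e6 reads (SD, n = 4), Atm+/+ 77.8 ± 12.2 and Atm+/- 85.5 ± 5.49, a log2 difference of -0.09 (exact permutation p = 0.444), and 0.12 in reads without substitutions (exact permutation p = 0.407). Within this class 2 to 4 bp made up nearly all, at 73.2 ± 7.43 per 1e6 reads in Spo11-/-. Deletions of 5 to 10 bp numbered 7, 15, 18 and 5 in Spo11-/-, and the genotypes with breaks were 1.61-fold higher (exact permutation p = 0.0617, adjusted p = 0.309). Of the 587 different short deletions in Spo11-/-, 521 were also in Atm+/+ or Atm+/- (88.8%), which is 54.6% of the 954 found there.

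The 4 short deletions with the most reads in Spo11-/- had overlapping ranges across genotypes. Loss of 1 AATA from the tandem copies at 33764964 had 1100, 1131 and 1690 reads per 1e6 in Spo11-/- amplicons 1 to 3. In Atm+/+ it had 1041, 1137 and 1393 and in Atm+/- 1387, 1547 and 1341, so the genotypes overlapped. Amplicon 4 begins downstream of it. The 3-bp deletion from 33765032, which can be moved by 6 bp, had 38.6, 44.6, 47.3 and 54.1 reads per 1e6 in Spo11-/- amplicons 1 to 4 and 38.2 to 48.9 in the other 8 libraries. The 2-bp deletion from 33765160 had 20.9 to 26.3 in Spo11-/-, 19.4 to 26.2 in the other libraries of sets C and D and 29 to 30.8 in set B. The 2-bp deletion from 33765007 had 15.3 to 22.7 in Spo11-/- and 12 to 29.5 in the others.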

How the data were processed

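Amplicon libraries of genomic DNA were made with 22 cycles of PCR, per the labels' protocols, and mm10 is the build that the submitters' processing notes name. Per the file headers, each row is 1 aligned sequence with its number of reads (counts, not normalized by the authors). A second deposited column states those reads as percent of the library, and the quotient of both gave the depth. The headers follow CRISPResso's allele tables; which version and settings the authors chose is not given in the sources used here. Whether the files count positions from 0 or 1 was not checked, since no genome was used.

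From these, 25 of 73567 rows were left out because their sequence length differed from the amplicon's. Amplicons were rebuilt from the most frequent base (at least 93.3% at each position beyond 20 bp from the ends), and deletions were moved to their left-most placement; the positions they can move by are the junction repeat. Rates per 1e6 reads, with 0.5 added to each count, were tested on the log2 scale by a two-sided exact permutation within amplicons (threshold 0.05), in Python 3.11.15 with numpy 2.4.6 and scipy 1.17.1, and the steps were tested on simulated data. Pairs of genotypes cannot reach 0.05 here. Amplicon numbers pair the libraries because the labels name the same PCR product. The deletions named by rule are, per amplicon, those with the most Spo11-/- reads, those in 2 or more Spo11-/- libraries, those shared, the strongest Spo11-/- lacks, and 4 short ones; the longest and those at primers, at TGTCTC or of 58 bp were named after their values were seen. The members and lists were chosen with earlier results of these data known. Atm-/- served only for sharing and to place the centre. Alternatives are in the closing section.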

Additional observations from a re-analysis of the deposited data

Results flagged for a closer look

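The Spo11-/- library of amplicon 1 stood far from the other Spo11-/- libraries in its median length over all reads, 104.5 bp against 58 to 64.5 bp, a median over 4 deletions. The Atm+/- library of amplicon 2 stood apart from the other Atm+/- libraries in reads without substitutions, at 73.5 bp against 37 to 38 bp, a median over 4 deletions. Among 60 groups of 4 libraries looked at, 2 stood apart, and chance alone marks about 1 in 20.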

How the results depend on the processing

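All differences are Spo11-/- minus the genotypes with breaks, log2 for rates, and their p-values are from exact permutation tests. With the block of amplicon numbers left out (no pairing; not run for the length classes), no call changed among distinct deletions, reads, 2 to 10 bp, median length and repeats: for distinct deletions of 11 bp or more the exact permutation gave p = 0.0828 over all reads and 0.513 in reads without substitutions, and for median length p = 0.00202 with 36.8 bp. Leaving out 1 amplicon, or 1 Atm+/+ or Atm+/- library, at a time gave -1.72 to -0.99 for distinct deletions of 11 bp or more over all reads (-0.67 to 0.21 without substitutions), -2.86 to -1.70 for their reads (-1.36 to -0.09) and -0.19 to 0.016 for 2 to 10 bp (0.016 to 0.24). Leaving out 1 amplicon at a time, with no single library left out, gave 21.8 to 44.2 bp for median length (-5.17 to 36.5 bp) and -3.99 to 3.58 points for repeats of 2 bp or more (2.60 to 20.7). For the 5 length classes in rising order the ranges over amplicons left out were -0.17 to 0.044, -0.83 to -0.53, -2.58 to -1.19, -1.17 to -0.87 and -0.49 to -0.16 over all reads, and -0.0071 to 0.24, -0.094 to 0.70, -0.73 to 0.74, -0.47 to 0.38 and -0.47 to 0.11 without substitutions. Without set B the sign turned at 30 to 99 bp over all reads (0.15), and in reads without substitutions for distinct deletions of 11 bp or more (0.014, by design the same with a term for library set), at 5 to 10 bp (-0.17), 11 to 29 bp (0.40), 30 to 99 bp (0.29) and in median length (-1.88 bp). Without ends in the middle of the amplicon it turned at 30 to 99 bp over all reads (0.0082), and without substitutions for distinct deletions of 11 bp or more (0.25), their reads (0.20), 11 to 29 bp (0.59), 30 to 99 bp (0.37) and 100 bp or more (0.11). For 2 to 10 bp it turned with at most 1 or 2 substitutions (0.056, 0.039), and without substitutions when thinned to the lowest depth (-0.012) or with depth scaled by the substitution-free share (-0.36). Repeats counted from 4 bp gave 6.49 points over all reads, and without deletions of 2 or more genotypes 33.9 points in reads without substitutions. In the latter Spo11-/- amplicon 1 held 1 deletion. Median length did not pass in 5 other settings: without set B (31.9 bp), also without deletions near a primer (27.1 bp; -27.8 bp in reads without substitutions), without middle ends (21.9 bp), with 2 or more reads (8.83 bp) and with at most 1 substitution (28.1 bp). Without amplicon 3 the class of 5 to 10 bp passed before adjustment (exact permutation p = 0.037). The causes of these changes were not tested. The settings on primers, scaled depth and on substitutions for median length were chosen after seeing the data. At 1 to 14 deletions a Spo11-/- library, counting error alone is wide.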
